A study of Homo sapiens with 6 samples.

Results

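The late response of 2 subclones of one prostate cancer line to extracellular ATP was examined across all measured genes, by setting the array of cells kept for 12 h in 100 µM ATP against the array of cells given no ATP, within each subclone. The arrays were chosen by their titles, and 4 of the 6 arrays of the series entered: ATP 12 h in 1E8, ATP 12 h in 2B4, control in 1E8 and control in 2B4. The other 2 arrays, of cells kept for 6 h in 100 µM ATP, served to estimate the spread and for a direct comparison of the times. 1E8 and 2B4 are both subclones of PC-3M, a metastatic derivative of the human line PC-3, and are known as the more and the less metastatic one. All cells grew in RPMI medium with fetal bovine serum, and the controls differed from them in having no ATP added. Each group was 1 array of biotin-labelled cRNA made from total RNA, so no group had a replicate of its own. Each control array has no time in the labels and serves for both times, so whatever time in culture does by itself cannot be told apart from 12 h of ATP.

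Extracellular ATP acts through P2 receptors at the cell surface, of which the P2X members are ion channels opened by ATP and the P2Y members couple to G proteins. Ectonucleotidases on the cell surface break ATP down to adenosine, which acts on receptors of its own, so that a culture examined late after addition may see both. Through calcium, protein kinase C and ERK, P2 receptors are known to induce immediate early genes first and slower sets of genes later.

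Markers of the cell type were read on the 4 arrays before the comparison. KRT8, KRT18, KRT19 and EPCAM, which mark epithelial cells, and VIM and CDH2, which mark mesenchymal cells, were above the detection limit on all 4 arrays, while CDH1 and FN1 were above it on none. The luminal prostate markers KLK2, KLK3, TMPRSS2 and FOLH1 were above it on none either. None of the 4 leukocyte markers was above the limit, and of the 3 endothelial markers PECAM1 alone was, with 95.8 and 102 intensity units after ATP in 1E8 and 2B4, against 54.3 and 73.9 in the controls. VWF and CDH5 were below 0 on all 4 arrays.

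Values are bead array intensities, linear and already background-subtracted, and differences are on the scale of log2(intensity + 16), on which 0.58 is close to a 1.5-fold difference for bright genes. Each array's detection limit was set 3 background widths above the peak of its dim entries. The limits were 50.3 and 43.2 on the ATP 12 h arrays of 1E8 and 2B4, against 28.9 and 52.6 on their control arrays, and the background of the 1E8 control was the narrowest of the 4, with a width of 8.59 units against 12.8 to 15.3. An entry was tested where any of the 6 arrays showed it above the limit, which held for 11150 entries, and 8632 were above it on all 4 arrays compared. Across these tested entries the ATP 12 h array correlated with the control array of its own subclone at r = 0.984 in 1E8 and 0.986 in 2B4, while the 2 ATP 12 h arrays correlated with each other at 0.966.

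Few genes differed from control in the same direction and by a clear margin in both subclones after 12 h of ATP. A difference of at least 1.5-fold on the log2(intensity + 16) scale was seen in the higher direction in both subclones for 25 of 11150 entries (0.224%) and in the lower direction for 56 (0.502%). The excess of lower entries depended on the filter and the scaling. Without a filter 173 entries were higher in both and 105 lower. With arrays scaled to 1 median 36 tested entries were higher in both and 37 lower, and with quantile normalization 28 and 47. The Kazal-type protease inhibitor gene SPINK13, the mucin gene MUC13 and the fibrillin gene FBN2 were among those higher in both, and the scaffold protein gene AHNAK2, the RNA-binding protein gene SYNCRIP and the amino acid transporter gene SLC38A2 among those lower in both. A further 32 entries were past 1.5-fold in both subclones but in opposite directions. At 2-fold, 3 entries were higher in both, 4 were lower in both and 1 was opposite. RNA came from whole cultures, so a level lower in every cell and fewer cells that express a gene cannot be told apart in any of these values.

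Within a single subclone many more entries passed that margin. In 1E8, 180 were at least 1.5-fold higher and 632 at least 1.5-fold lower at 12 h than in control, and in 2B4, 276 were higher and 340 lower. The balance in 1E8 was not kept without a filter, at 2074 higher and 1137 lower entries, nor under other scalings. Setting all arrays to 1 median gave 356 higher and 337 lower tested entries there, and quantile normalization gave 249 and 492. Taken at any size, 2183 entries (19.6%) were higher in both subclones, 3314 (29.7%) were lower in both, 5630 went opposite ways and 23 had a difference of 0 in a subclone. With arrays scaled to 1 median the balance turned round, with 3121 (28%) higher in both and 2400 (21.5%) lower in both, and with quantile normalization it was even, at 2707 (24.3%) and 2723 (24.4%). Counts of gene lists are therefore read against the share of all entries under the same scaling. The differences of 1E8 and 2B4 correlated across the tested entries at r = 0.058, which is a description over genes of 4 arrays and not a test. Among the 8632 entries above the limit on all 4 arrays, 9 were at least 1.5-fold higher in both, 17 lower in both and 9 opposite, with r = 0.026.

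Dim entries made up much of the shared set. Of the 25 entries higher in both, 9 were above the limit on all 4 arrays, 10 on 2 or 3 and 6 on 1. Of the 56 lower in both, 17 were above it on all 4 arrays, 19 on 2 or 3 and 20 on 1, and for 19 of those 20 the array was the 1E8 control, which had the lowest limit. The part of the narrower background of that array in these counts was not tested.

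**Figure D1:**
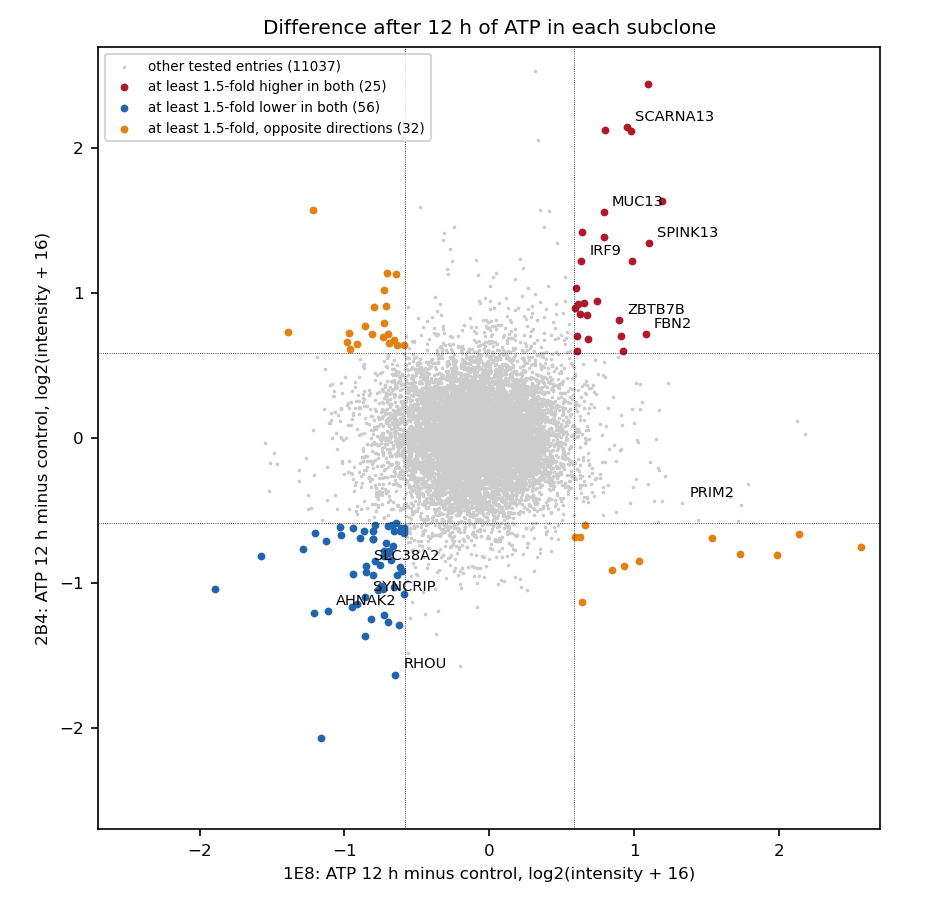
Each point is 1 of the 11150 tested entries, with the difference between ATP 12 h and control in 1E8 on the horizontal axis and in 2B4 on the vertical axis, both as log2(intensity + 16), and dotted lines at 1.5-fold. The 25 entries past 1.5-fold higher in both lie at the upper right, the 56 lower in both at the lower left and the 32 opposite ones in the other corners, while most entries form a round cloud with r = 0.058.

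The difference was tested with an additive limma model of subclone and condition over all 6 arrays, which has 2 residual degrees of freedom. After Benjamini-Hochberg adjustment 0 of 11150 entries (0%) passed 0.05 in limma, and the lowest adjusted p was 0.329. At an unadjusted p under 0.05, 295 entries (2.65%) were higher at 12 h and 725 (6.5%) lower. That split depended on the scaling of the arrays: scaling the arrays to 1 median gave 531 higher and 488 lower, and quantile normalization gave 429 and 570. The median difference over all tested entries in 1E8 was -0.08 as deposited and 0.04 with arrays scaled to 1 median, and in 2B4 it was 0.00 and 0.01, so single values in 1E8 are best read against that shift. The p-values and SEs rest only on the departure of these 6 arrays from the model, which is how far the subclones disagree across conditions. In it a true difference between the responses of 1E8 and 2B4 cannot be told apart from technical variation. With 1 array per group, no spread between replicates was measured.

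With the 4 arrays of ATP 12 h and control alone, which give the same estimates with 1 residual degree of freedom, limma called 25 entries (0.224%) at an adjusted p under 0.05. Of these, 10 were higher and 15 lower at 12 h, and all 25 were past 1.5-fold in both subclones. Their SEs lay between 0.20 and 0.24, so a call needed a large mean difference, and passing 1.5-fold in both was largely fixed in advance. Of the 25, 6 were above the limit on all 4 arrays. The 6 were SCARNA13, SPINK13 and MUC13, which were higher, and AHNAK2, RHOU and SYNCRIP, which were lower. None of the 25 passed in the fit of all 6 arrays, though the SE did not grow for all of them. From 4 arrays to 6 it fell for SPINK13 (0.20 to 0.15), AHNAK2 (0.20 to 0.13) and SYNCRIP (0.20 to 0.14). It rose for SCARNA13 (0.23 to 0.27), MUC13 (0.21 to 0.27) and RHOU (0.22 to 0.23).

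Genes whose signal exceeded the limit on all 4 arrays were ranked by the smaller of their 2 within-subclone differences, so that a gene ranks high only where both subclones moved the same way. The gene ranked first among the higher ones was SPINK13 (deposited under its former name SPINK5L3), which encodes a secreted inhibitor of serine proteases. Its intensity was 265 in 1E8 and 180 in 2B4 after 12 h of ATP, against 115 and 61.0 in the controls. Both ATP arrays were above both controls, with differences of 1.10 and 1.34 and a fitted difference of 1.22 ± 0.15 (SE, limma adjusted p = 0.329, and 0.00493 in limma on the 4 arrays alone).

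SCARNA13, a small Cajal body RNA of the class that guides modification of spliceosomal RNAs, had 168 and 368 units after ATP in 1E8 and 2B4, against 79.2 and 70.8 in the controls. The difference was 0.95 in 1E8 and 2.14 in 2B4, fitted at 1.55 ± 0.27 (limma adjusted p = 0.329). The size rested on single arrays: it was 1.01 without the 2B4 control and 2.08 without the 1E8 control. The labelling kit primes from poly(A) tails, which mature RNAs of this class lack, and signal from longer host transcripts cannot be told apart from theirs.

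MUC13, a transmembrane mucin of epithelial surfaces, had 328 and 226 units after ATP in 1E8 and 2B4, against 183 and 65.8 in the controls. The 2B4 array gave the larger difference, 1.56 against 0.79 in 1E8, and the fitted value of 1.18 ± 0.27 became 0.68 without the 2B4 ATP 12 h array. FBN2, a fibrillin of extracellular microfibrils, had 629 and 487 units after ATP, against 289 and 289 in the controls. Its controls were near equal, and both ATP arrays stood above them by 1.08 and 0.72.

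Among signalling genes, IRF9, the DNA-binding subunit of the interferon-activated complex ISGF3, had 296 and 345 units after ATP in 1E8 and 2B4, against 185 and 139 in the controls. It was higher in both subclones, by 0.64 and 1.22, with a fitted difference of 0.93 ± 0.17 (limma adjusted p = 0.337). SLIT2, the secreted ligand of ROBO receptors, had 135 and 200 units after ATP, against 82.0 and 103 in the controls. FGFBP1, which binds fibroblast growth factors and releases them from the matrix, stood at 692 and 895 units after ATP against 466 and 513 in the controls. CCL26, a chemokine that acts on CCR3, differed in level between the subclones but not in direction. It stood at 81.0 in 1E8 and 310 in 2B4 after ATP, against 51.2 and 186 in the controls, and was higher by 0.53 and 0.69. VASN, a membrane protein that binds TGF-beta, had 354 and 531 units after ATP, against 241 and 237 in the controls, and PDGFRL, a protein like the PDGF receptor's outer part, had 244 and 279 against 160 and 191.

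The transcription factor gene ZBTB7B had 92.9 and 158 units after ATP in 1E8 and 2B4, against 42.4 and 82.6 in the controls. Its differences of 0.90 and 0.82 were nearly equal, and the fitted value was 0.86 ± 0.17 (limma adjusted p = 0.385). CRYAB, a small heat shock protein, had the most even pair of differences of the 15 named genes that were higher, 0.60 in each subclone. It had 67.5 and 122 units after ATP, against 38.9 and 74.9 in the controls. The 1E8 control values of ZBTB7B and CRYAB were above that array's limit of 28.9 but below the 50.3 of the 1E8 ATP array. The other 3 of the 15 were B3GNT3, a glycosyltransferase of O-glycans, TCTA, and WIPI1, a lipid-binding protein of forming autophagosomes. Their within-subclone differences lay between 0.51 and 0.79.

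AHNAK2, a very large scaffold protein, led the genes that were lower in both subclones. It had 159 and 153 units after ATP in 1E8 and 2B4, against 362 and 371 in the controls. The differences were -1.12 and -1.19 and the fitted value -1.16 ± 0.13 (limma adjusted p = 0.329, and 0.00745 in limma on the 4 arrays alone). The ATP arrays and the controls formed 2 tight pairs, and without any 1 array the estimate stayed between -1.19 and -1.12.

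SYNCRIP, also known as hnRNP Q, which binds mRNA in the nucleus and cytoplasm, had 533 and 373 units after ATP, against 978 and 819 in the controls. SLC38A2, which imports small neutral amino acids, had 716 and 522 units after ATP, against 1305 and 975 in the controls. Both ATP arrays lay below both controls for each of these genes. The fitted differences were -0.98 ± 0.14 for SYNCRIP and -0.87 ± 0.13 for SLC38A2 (limma adjusted p = 0.329 for each). SNORA25, an H/ACA small nucleolar RNA with the same limit as SCARNA13, had 103 and 56.7 units after ATP, against 192 and 124 in the controls.

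FAR2, which reduces fatty acyl-CoA to fatty alcohols, had 167 and 149 units after ATP in 1E8 and 2B4, against 293 and 287 in the controls. The subclones again gave like values, with differences of -0.76 and -0.88. RHOU, an atypical small GTPase, had 162 and 52.6 units after ATP, against 263 and 197 in the controls. Its difference was larger in 2B4 (-1.63) than in 1E8 (-0.65), and the fitted value of -1.14 ± 0.23 became -0.73 without the 2B4 ATP 12 h array. DPYD, which starts pyrimidine breakdown, had 137 and 66.6 units after ATP, against 248 and 109 in the controls.

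The other 8 of the 15 lower genes were LRRC14, HAGHL, DYNC2I1 (a dynein-2 chain of cilia, deposited as WDR60), SHISA3 (an inhibitor of WNT signalling), ATXN1, BICRAL (a subunit of a SWI/SNF complex, deposited as KIAA0240), GMEB2 and the snoRNA host gene SNHG15 (deposited as C7ORF40). Their within-subclone differences lay between -1.02 and -0.59. None of the 30 genes named by shared difference changed sign under other scalings, another offset or without any 1 array. They were chosen for large differences of the same sign in both subclones, which largely fixed this in advance, so it is not a test of them.

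**Figure D2:**
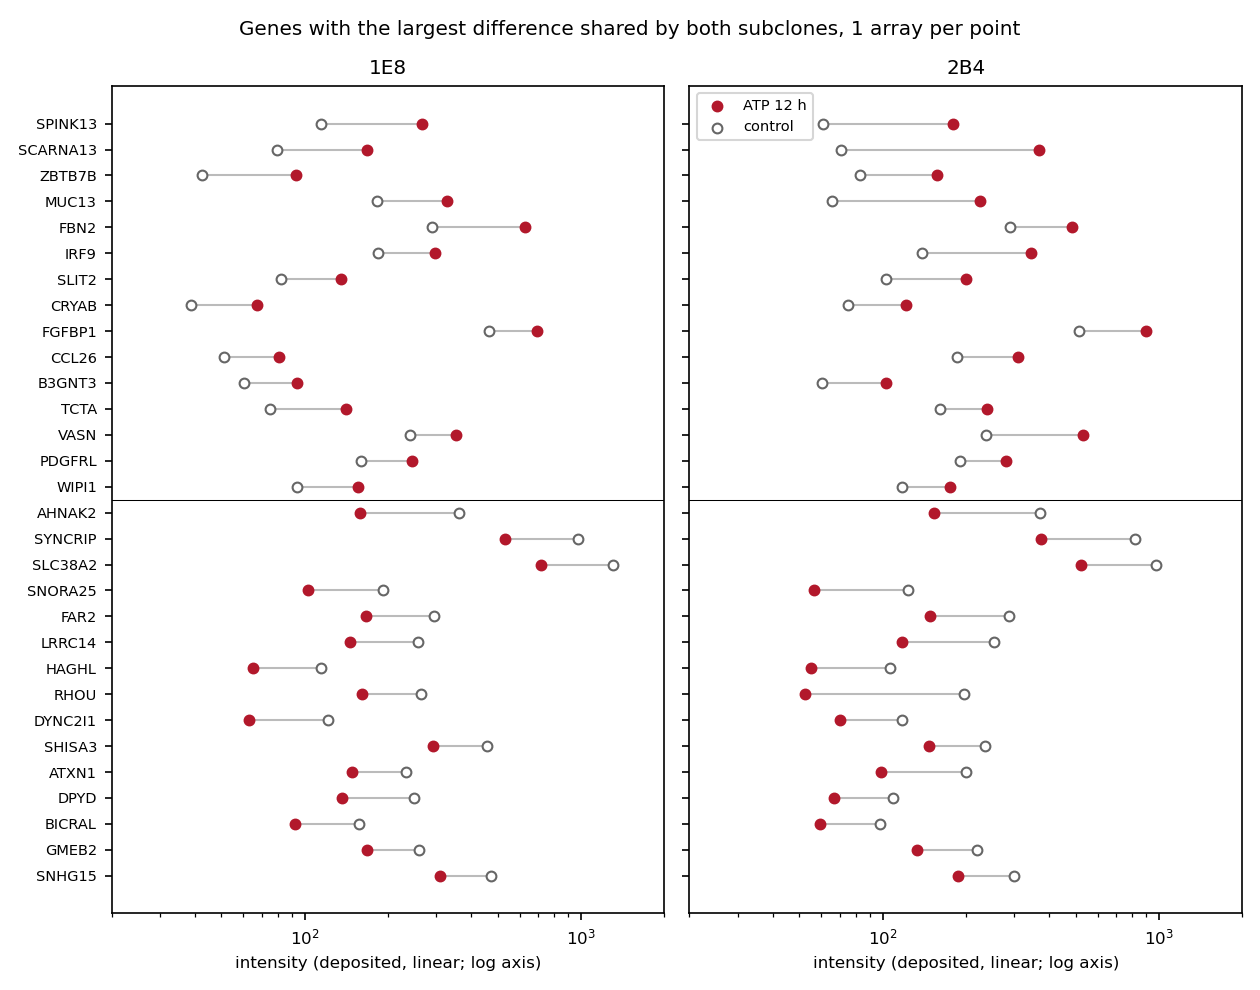
Deposited intensity (log axis) of the 15 higher and 15 lower genes with the largest difference shared by both subclones, with 1E8 on the left and 2B4 on the right, and 1 array per point: ATP 12 h filled and control open. The filled point lies right of the open one for every gene above the dividing line and left of it for every gene below. AHNAK2 shows nearly the same pair of values in both panels (159 against 362 in 1E8, 153 against 371 in 2B4).

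With placeholder symbols left aside, 64 genes were above the limit on both arrays of one condition and on neither of the other, 2 of them on the ATP 12 h arrays and 62 on the controls. The limits differed, and for 39 of the 62 the 1E8 control value, though above its own limit of 28.9, was not above the limit of 50.3 on the 1E8 ATP array. For such genes only a bound can be given: the mean of the bright arrays over the dim arrays' limits or values, whichever was higher. PRRT2 was above the limit on both ATP 12 h arrays and on neither control, at 51.7 and 55.5 units against 18.2 and 14.6, and was at least 1.37-fold higher at 12 h. The other one was LDHAL6A, at least 1.27-fold higher, whose 2B4 arrays stood at 44.0 after ATP and 47.6 in control, and whose fitted difference changed sign without the 1E8 control. In the other direction, among the 5 largest bounds, the nuclear receptor gene RORB was at least 2.00-fold lower at 12 h, at 41.2 and 42.7 units against 109 and 80.0. KICS2, part of the KICSTOR complex that restrains mTORC1, was at least 1.81-fold lower, the histone deacetylase gene HDAC4 at least 1.79-fold, the synaptic vesicle gene SYT1 at least 1.64-fold and TAF7, a subunit of TFIID, at least 1.62-fold. The controls of these 5 genes had mean intensities of 76.4 to 94.5.

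Many genes of RNA processing were lower after 12 h of ATP in both subclones. Of 58 tested splicing factor and hnRNP genes, 30 were lower in both subclones and 5 higher in both, beside 29.7% and 19.6% of all tested entries, and 7 (12.1%) were lower at an unadjusted p under 0.05 with none higher, beside 6.5% and 2.65% of all tested entries. Their median difference was -0.14, against -0.04 for all tested entries, and the gap was as wide with arrays scaled to 1 median, at -0.08 against 0.02. Under that scaling 19 (32.8%) were lower in both and 10 (17.2%) higher, beside 21.5% and 28% of all entries. At an unadjusted p under 0.05 it left 4 (6.9%) lower and none higher, beside 4.38% and 4.76% of all entries. None passed the adjusted threshold in limma, and no set test was made.

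Besides SYNCRIP, the serine/arginine-rich splicing factor SRSF3 had 123 and 111 units after ATP in 1E8 and 2B4, against 190 and 189 in the controls. The related SRSF7 had 629 and 631 units after ATP, against 1032 and 919.5. Each was lower in both subclones, by 0.53 to 0.70, and for SRSF3 and SRSF7 alike the ATP arrays lay below both controls. Of 16 tested genes of 3′ end processing and termination, 9 (56.2%) were lower in both subclones and 1 (6.25%) higher, beside 29.7% and 19.6% of all entries. At an unadjusted p under 0.05, 3 (18.8%) were lower in limma, beside 6.5% of all entries, and the median was -0.14. With arrays scaled to 1 median 8 (50%) were lower in both and 2 (12.5%) higher, beside 21.5% and 28% of all entries. Under that scaling 2 (12.5%) were lower at an unadjusted p under 0.05 in limma, beside 4.38% of all entries. PPP1R10, a targeting subunit of protein phosphatase 1 at transcribed genes, had 96.3 and 56.2 units after ATP, against 150 and 186 in the controls, with the larger difference in 2B4 (-1.48 against -0.56 in 1E8). PCF11, a termination factor that binds RNA polymerase II, had 69.8 and 69.9 units after ATP, against 131 and 96.4 in the controls. WDR33, which reads the polyadenylation signal, had 52.2 and 54.8 units after ATP, against 75.0 and 72.5.

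Of 51 tested genes of G1/S and DNA replication, 25 (49%) were lower in both subclones and 3 (5.88%) higher in both, beside 29.7% and 19.6% of all entries. Lower at an unadjusted p under 0.05 were 3 (5.88%), which is near the 6.5% of all entries. Scaling the arrays to 1 median changed the shared counts to 16 (31.4%) and 8 (15.7%), beside 21.5% and 28% of all entries. CDT1, which licenses replication origins, had 173 and 145 units after ATP in 1E8 and 2B4, against 241 and 234 in the controls, and CHAF1A, a histone chaperone of the replication fork, had 69.2 and 65.6 against 99.4 and 105. Of the 46 tested G2/M genes, 12 (26.1%) were lower in both and 8 (17.4%) higher in both, shares near those of all entries, and with arrays scaled to 1 median 7 were lower and 13 higher. Among them BUB1B, a spindle checkpoint kinase, had 94.1 and 57.7 units after ATP against 135 and 100.2 in the controls. Of 13 tested feedback genes of the ERK pathway, 6 (46.2%) were lower in both and 2 (15.4%) higher, which became 4 (30.8%) and 3 (23.1%) with arrays scaled to 1 median. DUSP6, the phosphatase that switches ERK off, had 182 and 222 units after ATP, against 326 and 282 in the controls. SPRED1, an inhibitor of RAS signalling, had 636 and 368 units against 841 and 589, and SPRY2, a Sprouty inhibitor, had 158 and 218 against 242 and 270.

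**Figure D3:**
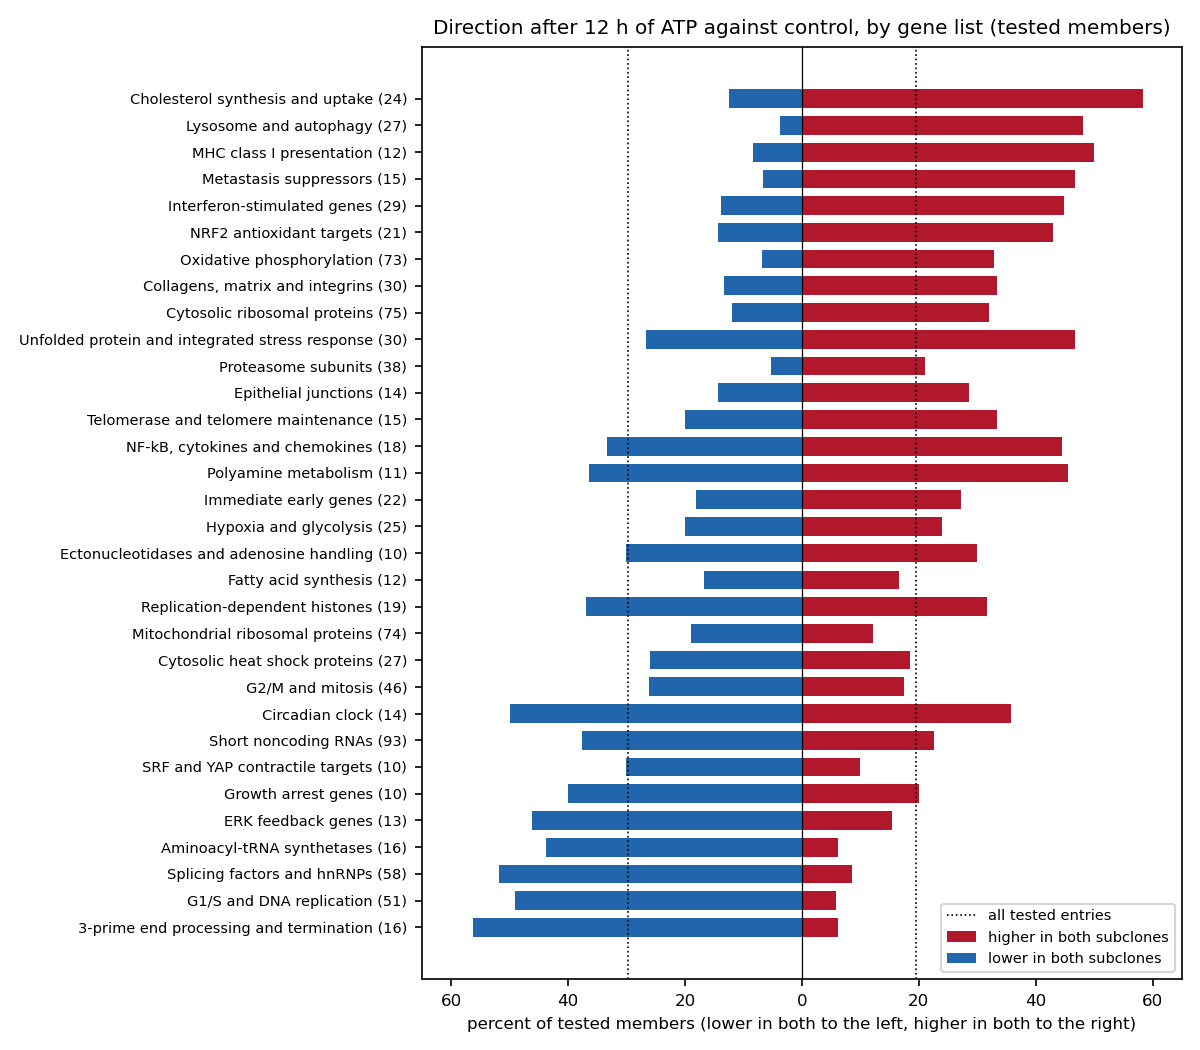
For each gene list with at least 10 tested members (number in brackets), the bar to the right is the percent of members higher after 12 h of ATP in both subclones and the bar to the left the percent lower in both; values are as deposited and dotted lines mark all tested entries (19.6% higher, 29.7% lower). Lysosome (13 of 27) and cholesterol genes (14 of 24) reach far to the right, and splicing factors (30 of 58) and 3′ end processing genes (9 of 16) far to the left.

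Many genes of the lysosome and autophagy were higher after 12 h of ATP in both subclones. Of 27 tested, 13 (48.1%) were higher in both subclones and 1 (3.7%) lower in both, beside 19.6% and 29.7% of all entries. At an unadjusted p under 0.05, 7 (25.9%) were higher and none lower, beside 2.65% and 6.5%, and the median difference was 0.10 in the fit, 0.12 in 1E8 and 0.14 in 2B4. With arrays scaled to 1 median, 16 (59.3%) were higher in both and 1 lower, where the share of all entries higher in both was also larger, at 28%. NEU1, the lysosomal sialidase, had 187 and 380 units after ATP in 1E8 and 2B4, against 131 and 193 in the controls, with a fitted difference of 0.69 ± 0.16. GLA, the lysosomal alpha-galactosidase, had 634 and 1401 units after ATP, against 528 and 897. CTSD, the aspartic protease cathepsin D, had 374 and 475 units after ATP, against 261 and 362 in the controls. The tetraspanin CD63, a protein of lysosome and late endosome membranes, had 2230 and 2354 units after ATP, against 1591 and 1846. WIPI1, described above, is a member too, and for CTSD, CD63 and WIPI1 both ATP arrays were above both controls. None passed the adjusted threshold in limma.

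Of 24 tested genes of cholesterol synthesis and uptake, 14 (58.3%) were higher in both subclones and 3 (12.5%) lower in both, beside 19.6% and 29.7% of all entries. Their median was 0.16, and 3 (12.5%) were higher at an unadjusted p under 0.05, beside 2.65% of all entries. The enzymes MVD and DHCR7 of the pathway were higher by 0.54 and 0.55 in 1E8 but by 0.25 and 0.16 in 2B4, and INSIG1, which holds the sterol sensor in the endoplasmic reticulum, had 461 and 410 units after ATP against 362 and 348 in the controls. Oxidative phosphorylation genes showed small shared differences with a median of 0.05. Of 73 tested, 24 (32.9%) were higher in both and 5 (6.85%) lower in both, beside 19.6% and 29.7% of all entries. With arrays scaled to 1 median 37 (50.7%) were higher in both, beside 28% of all entries. With quantile normalization 21 (28.8%) were, which is near the 24.3% of all entries. As deposited, 1 (1.37%) was higher at an unadjusted p under 0.05, beside 2.65% of all entries. Among 30 tested genes of the unfolded protein and integrated stress response, 14 (46.7%) were higher in both and 8 (26.7%) lower in both, and single members went apart. The chaperone HYOU1 had 283 and 286 units after ATP against 174 and 217 in the controls, while the transcription factor ATF4 had 1060 and 606 against 1275 and 876.

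Of 29 tested interferon-stimulated genes, 13 (44.8%) were higher in both subclones and 4 (13.8%) lower in both, beside 19.6% and 29.7% of all entries, with a median of 0.09 in the fit, 0.05 in 1E8 and 0.19 in 2B4. IFI44L had 161 and 180 units after ATP in 1E8 and 2B4, against 132 and 94.8 in the controls. OAS1, which senses double-stranded RNA, had 453 and 234 units after ATP, against 294 and 194. HERC5, a ligase that attaches ISG15 to proteins and was picked after its values were seen as a member that was lower, had 58.9 and 29.4 units after ATP, against 80.3 and 40.2, the 2B4 values being below the limit.

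Promoter windows of list members were read to show which of them hold the motif each list is known for. The windows are RefSeq's for GRCh38.p14, from 250 bases before to 50 after a gene's start, with the first listed start per symbol. The interferon response element core, read as GAAA, any 2 bases and GAAA again, was searched on both strands, as was the palindromic E-box CACGTG, the core of the element bound by TFEB, a transcription factor of lysosome genes. In each window capitals mark every match to the motif of the gene's own list, and the E-box that HERC5 also holds, 33 bases before its start, is left in lower case. The window of IFI44L is chr1:78620198-78620497 (plus strand) and that of HERC5 chr4:88456869-88457168 (plus strand), shown as genes that were higher and lower in both subclones with the same motif. The window of NEU1 is chr6:31862772-31863071 (minus strand) and that of CTSD chr11:1763878-1764177 (minus strand), shown as lysosome genes with the E-box that were higher in both.
IFI44L: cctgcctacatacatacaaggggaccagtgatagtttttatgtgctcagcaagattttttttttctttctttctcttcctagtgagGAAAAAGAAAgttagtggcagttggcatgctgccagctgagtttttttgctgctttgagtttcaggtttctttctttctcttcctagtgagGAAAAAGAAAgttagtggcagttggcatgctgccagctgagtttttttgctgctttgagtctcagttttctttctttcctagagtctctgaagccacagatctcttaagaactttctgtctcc
HERC5: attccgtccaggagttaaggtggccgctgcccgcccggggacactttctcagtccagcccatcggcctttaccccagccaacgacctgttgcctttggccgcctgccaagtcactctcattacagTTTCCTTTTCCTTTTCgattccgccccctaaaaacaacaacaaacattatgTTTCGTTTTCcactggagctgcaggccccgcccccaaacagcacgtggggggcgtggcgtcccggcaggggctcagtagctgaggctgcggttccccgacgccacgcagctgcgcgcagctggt
NEU1: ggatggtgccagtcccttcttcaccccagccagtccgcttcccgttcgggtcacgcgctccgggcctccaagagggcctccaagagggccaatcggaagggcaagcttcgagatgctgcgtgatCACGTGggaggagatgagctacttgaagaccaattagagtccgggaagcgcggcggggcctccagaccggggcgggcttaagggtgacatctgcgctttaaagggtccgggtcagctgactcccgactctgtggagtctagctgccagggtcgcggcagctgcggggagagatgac
CTSD: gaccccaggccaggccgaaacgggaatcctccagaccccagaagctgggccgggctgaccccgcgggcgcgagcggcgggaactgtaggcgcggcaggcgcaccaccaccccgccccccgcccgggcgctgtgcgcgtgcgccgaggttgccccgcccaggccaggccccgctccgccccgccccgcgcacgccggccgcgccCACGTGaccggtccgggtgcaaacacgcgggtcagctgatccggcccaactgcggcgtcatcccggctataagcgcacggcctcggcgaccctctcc

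The window of IFI44L holds the interferon motif 164 and 73 bases before the start, and that of HERC5 holds it 125, 119 and 74 bases before, the first pair overlapping. Of the 24 tested interferon-stimulated genes with a window, 16 hold the motif, which is found in 3.65% of 27305 promoters. Of these 16, 6 were higher in both subclones, 2 lower in both and 8 went opposite ways, while of the 8 without it, 5 were higher in both and none lower. The E-box, found in 7.43% of promoters, is in 6 of 22 lysosome windows, 126 bases before the start of NEU1 and 47 before that of CTSD. Of those 6, 3 were higher in both subclones and none lower, and of the 16 without it, 8 were higher and 1 lower. A match describes these letters and is not evidence of binding.

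Most genes of ATP receptors were too dim to test. Of 17 P2 receptor genes, 3 were tested and none was above the limit on all 4 arrays. The channel gene P2RX4 had 56.7 and 42.8 units after ATP in 1E8 and 2B4, against 47.7 and 24.6 in the controls, above the limit on both 1E8 arrays and on neither 2B4 array. P2RY11, a G protein-coupled receptor for ATP, had 19.1 and 9.12 units after ATP, against 41.1 and 22.3, and P2RY2 had 33.0 and 14.7 against 30.7 and 12.5. P2RY11 and P2RY2 were each above the limit on 1 of the 4 arrays, so these values are near background. At 6 h P2RY11 had 84.7 and 87.3 units, above the limit on both arrays, and was thus at least 1.84-fold lower at 12 h than at 6 h (limma adjusted p = 0.327, the lowest of that comparison).

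Of 10 tested genes of ectonucleotidases and adenosine handling, 3 (30%) were higher in both subclones and 3 lower in both, beside 19.6% and 29.7% of all entries. NT5E, the surface enzyme that makes adenosine from AMP, had 117 and 337 units after ATP in 1E8 and 2B4, against 88.9 and 245 in the controls, a fitted difference of 0.39 ± 0.13 (limma adjusted p = 0.483). SLC29A1, a nucleoside transporter, had 144 and 146 units after ATP, against 117 and 114. Both were higher at 12 h in each subclone. The chemokine gene CXCL8 (deposited as IL8) had 271 and 57.7 units after ATP, against 210 and 43.1 in the controls. It was higher by 0.34 in 1E8, while in 2B4 the control value was below the limit of 52.6, so the size of the difference there is not measured.

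Of the 22 metalloproteinase and inhibitor genes, 5 were tested. MMP1, interstitial collagenase, had 101 and 178 units after ATP in 1E8 and 2B4, against 182 and 238 in the controls, and was lower by 0.76 and 0.39. MMP13, collagenase 3, had 37.3 and 50.2 units after ATP, against 102 and 82.3, above the limit on 3 of the 4 arrays. The inhibitors TIMP1 and TIMP2 had fitted differences of 0.12 ± 0.13 and 0.17 ± 0.13 (SE). None of these genes passed the adjusted threshold in limma.

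Whether the 12 h response differed between the subclones was asked with an added term in limma, which sets the difference of 1E8 and 2B4 at 12 h against their mean difference in the control and 6 h arrays and leaves 1 residual degree of freedom. No entry passed the adjusted threshold, and the lowest adjusted p in limma was 1.00. At an unadjusted p under 0.05, 107 entries (0.96%) were higher in the response of 1E8 and 213 (1.91%) higher in that of 2B4. Among genes bright on all 6 arrays, TELO2, a co-chaperone for kinases of the PIKK family, had a term of -1.28 ± 0.28 (SE). It had 103 units after 12 h of ATP against 77.4 in control in 1E8, and 197 against 55.6 in 2B4. TELO2 was thus higher in both subclones, but by 0.35 in 1E8 and 1.58 in 2B4.

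PRIM2, a primase subunit, had the highest term, 1.19 ± 0.45 (SE). It had 147 units after ATP against 48.8 in control in 1E8, and 82.6 against 119 in 2B4. FOSL1, an AP-1 subunit, had 408 units after ATP against 289 in control in 1E8, and 431 against 711 in 2B4. TBC1D9 and DNAJC19 were lower in 1E8, by 1.00 and 0.87, and higher in 2B4, by 0.42 and 0.50. FLRT2, PMM2 and NMI were higher in 1E8 by 0.08 to 0.19 and lower in 2B4 by 0.37 to 0.88. MUC13, among the genes highest in both, also stood among the 5 lowest terms, at -0.99 ± 0.31. Its difference from control was larger in 2B4, and at 6 h, which enters the term too, it had 718 units in 1E8 and 206 in 2B4. With 1 residual degree of freedom none of these is a call.

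The ATP arrays of the 2 times were compared directly, since both times share the same controls. None of the 11150 entries passed the adjusted threshold in limma, with a lowest adjusted p of 0.327, and at an unadjusted p under 0.05, 371 (3.33%) were higher and 404 (3.62%) lower at 12 h than at 6 h. Several genes that were lower at 12 h than at 6 h stood near or below control at 12 h. H3-3B, which encodes the histone variant H3.3, had 177, 249 and 94.7 units in control, 6 h and 12 h in 1E8, and 99.4, 221 and 87.0 in 2B4. HSPA5, the chaperone BiP of the endoplasmic reticulum, had 165, 264 and 124 in 1E8 and 134, 202 and 104 in 2B4. The differences of 12 h from 6 h were -1.23 ± 0.19 for H3-3B and -0.93 ± 0.13 for HSPA5 (SE, limma adjusted p = 0.443 for each).

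PCF11, the termination factor described above, had 131, 151 and 69.8 units in control, 6 h and 12 h in 1E8, and 96.4, 166 and 69.9 in 2B4. The complement gene C5 had 282, 486 and 229 units in 1E8 and 368, 513 and 303 in 2B4, and HAPSTR1 differed from 6 h by -0.85. CXCL8 had 210, 757 and 271 units in 1E8 and 43.1, 133 and 57.7 in 2B4, so its level at 12 h lay nearer to control than to 6 h in both subclones. In the other direction RAB26, a GTPase of secretory vesicles, had 213, 84.1 and 177 units in 1E8 and 156, 81.4 and 219 in 2B4, a difference of 12 h from 6 h of 1.11 ± 0.18. CLIC3, H4C14 and CYSRT1 were higher at 12 h than at 6 h by 0.82 to 0.95.

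**Figure D4:**
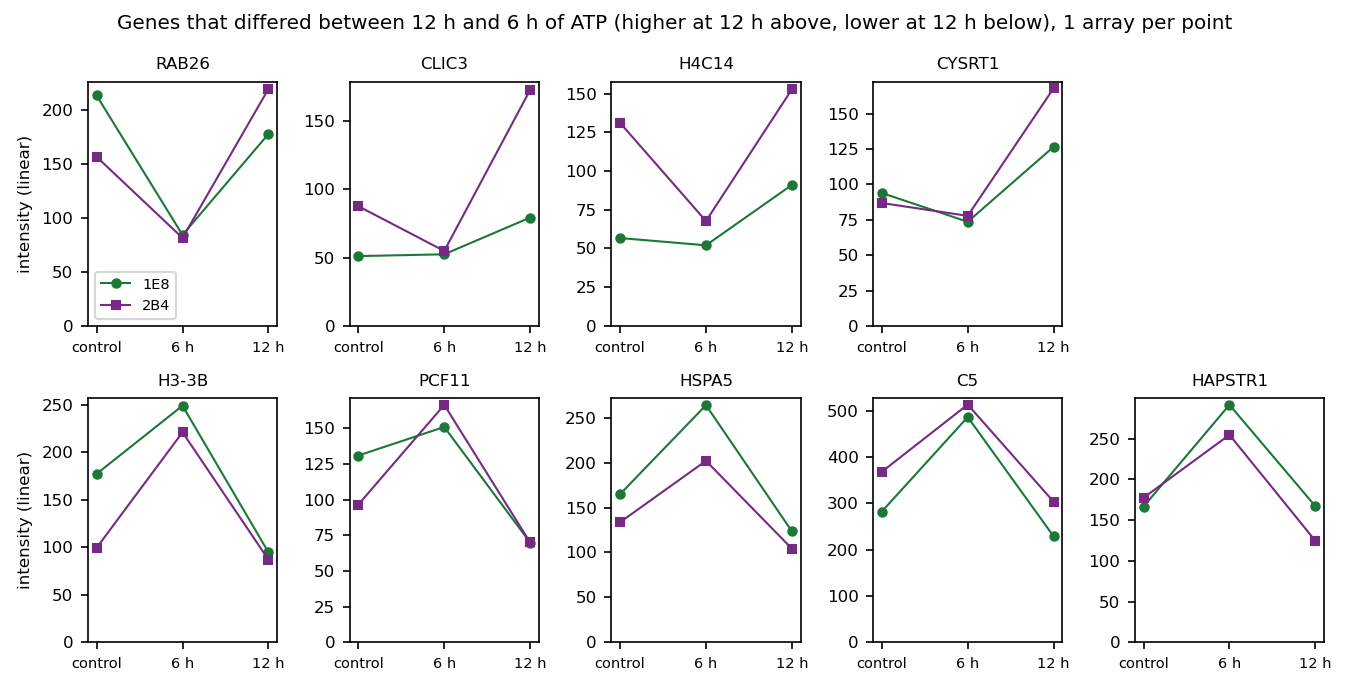
Deposited intensity in control, after 6 h and after 12 h of ATP for 4 genes that were higher (upper row) and 5 that were lower (lower row) at 12 h than at 6 h, with 1E8 as circles and 2B4 as squares, 1 array per point. In the lower row the 6 h point is the highest of the 3 in both subclones, as for HSPA5 (264 at 6 h against 124 at 12 h in 1E8), and RAB26 in the upper row is lowest at 6 h.

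Not all shared differences behaved like that. SPINK13 had 115, 290 and 265 units in control, 6 h and 12 h in 1E8 and 61.0, 140 and 180 in 2B4, and its difference between the times was 0.11 ± 0.15. FBN2, with 289, 663 and 629 units in 1E8 and 289, 436 and 487 in 2B4, likewise stood at 12 h close to its level at 6 h. ZBTB7B went the other way, with 42.4, 44.9 and 92.9 units in 1E8 and 82.6, 54.1 and 158 in 2B4, so that 12 h was above both control and 6 h. Its difference between the times was 1.07 ± 0.17 (limma adjusted p = 0.443), and its 6 h value in 1E8 was below the limit of 46.4. AHNAK2, with 362, 206 and 159 units in 1E8 and 371, 210 and 153 in 2B4, was lower at 12 h than at 6 h on top of being lower than control. SRSF7, with 1032, 937 and 629 units in 1E8 and 919.5, 977 and 631 in 2B4, stood apart from control mainly at 12 h.

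Of the cytosolic heat shock genes, 25 of 27 tested (92.6%) were lower at 12 h than at 6 h, beside 5506 of 11150 entries (49.4%), with a median of -0.20 against 0.00 for all tested entries. Against control their median at 12 h was -0.03, close to the -0.04 of all tested entries. G2/M genes were lower at 12 h than at 6 h for 34 of 46 tested members (median -0.18) and splicing factors for 48 of 58 (median -0.09), while 14 of 19 tested histone genes were higher (median 0.22).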

How the data were processed

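The 6 groups of 1 array each were taken from the sample titles. The deposited intensity values are linear. Per the labels' protocols, total RNA was amplified and biotin-labelled as cRNA with an Illumina kit. What software and normalization gave them is not given in the sources used here. Their distribution shows background subtraction and a common scale, since 24.0% to 25.5% of the 34594 entries were below 0 and array means lay between 193 and 194. A second table holds 6 columns of signals whose names match no sample, and they were not used here.

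Negative intensities were replaced by 0 before taking log2(intensity + 16), which understates the change of dim genes. Of all entries, 17757 carried a current symbol of a RefSeq gene table, 3303 an older synonym and 13534 only the deposited name. Sequence clusters (3270 entries) and 489 dimmer entries of a gene with a brighter one were left out. Tests used limma 3.58.1 in R 4.3.3 on entries above the detection limit of any array (subclone and condition, Benjamini-Hochberg over 11150 entries). The fit was also run on simulated arrays with independent noise and the same effect in both subclones. That setting leaves out differences between the subclones, so it does not show how the fit behaves where they are present. No pair of arrays was identical. The number of arrays limits the precision, and slide and scan batches were not tested, since no label or header names them.

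The comparison, the gene lists and the naming rules were chosen with earlier results of these data known. Named genes are the 15 highest and 15 lowest by the smaller within-subclone difference, up to 5 bounds each way, up to 4 members per list, the 5 highest and lowest for subclone and time, and P2 receptor, ectonucleotidase and metalloproteinase genes with CXCL8. Some results that these rules name are not reported here. HERC5 was chosen after its values were seen. Alternatives were scaling, offset, filters, arrays fitted, the variance prior and leaving out each array.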

Additional observations from a re-analysis of the deposited data

Results flagged for a closer look

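The medians of the 16 tested aminoacyl-tRNA synthetase genes, which charge tRNAs with amino acids, stood on opposite sides of that of all tested entries in the subclones. Their median difference between ATP 12 h and control, minus that of all tested entries, was 0.0607 in 1E8 and -0.129 in 2B4. The difference between the subclones was not tested. The list's own medians were below 0 in both, at -0.02 in 1E8 and -0.13 in 2B4. Of its members, 7 (43.8%) were lower in both subclones and 1 (6.25%) higher, beside 29.7% and 19.6% of all tested entries. YARS1 and VARS1 were among those lower in both, by 0.38 and 0.27 in 1E8 and by 0.29 and 0.31 in 2B4.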

How the results depend on the processing

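The arrays were paired by subclone, which was the block of every fit. By replicate number no paired analysis was possible because each group holds 1 array. With either 6 h array left out, the other is alone in its condition, so both fits repeat that of the 12 h and control arrays. The count of genes called at 12 h was 0, but 25 on the 12 h and control arrays alone. Without 1 array it ranged between 0 and 25: 4 without the 1E8 control, 25 without the 1E8 or the 2B4 6 h array, 2 without the 1E8 12 h array, 8 without the 2B4 control and 0 without the 2B4 12 h array. Entries higher at an unadjusted p under 0.05 numbered 295, but 531 with arrays scaled to 1 median, 1241 without a filter and 136 to 773 without 1 array (773 without the 1E8 control, 647 without the 2B4 control, 136 without the 2B4 12 h array). Entries lower numbered 725, but 1181 without a filter and 435 to 1805 without 1 array (446 without the 1E8 12 h array, 435 without the 2B4 12 h array, 1805 without the 2B4 control). Counts past 1.5-fold in both subclones were 25 higher and 56 lower, against 7 and 13 with an offset of 50, 8 and 16 among entries above the limit on all 6 arrays, 173 and 105 without a filter, 3 and 4 at 2-fold, and 36 and 37 with arrays scaled to 1 median. For the term between subclones, 107 higher became 164 with arrays scaled to 1 median and 66 with the limit on all 6 arrays, and 213 lower became 122 with that limit. For 12 h against 6 h, 371 higher and 404 lower became 746 and 760 on the ATP arrays alone. Fewer or more entries tested, or fewer arrays, changed by construction in the filter and array settings; for the scalings the cause was not tested. Of 765 values of 85 genes at 12 h under a scaling, an offset or without 1 array, 764 kept their sign, the exception being LDHAL6A, between -0.13 without the 1E8 control and 0.95 without the 2B4 control. All 60 values of genes chosen for subclone or time kept theirs. Many of the genes were named for large differences in these same arrays, a choice that largely fixed their signs in advance. Differences of 12 h from control without a 6 h array equal those of all 6 arrays by construction. Of 38 gene lists with at least 5 tested members, 26 had a median above that of all tested entries, 25 to 26 under the scalings and offset and 22 to 27 without 1 array.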

Other observations

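Several genes outside the sets described so far were also apart from control at 12 h in both subclones. The retinoic acid responsive receptor gene GPRC5A had 244 and 365 units after ATP in 1E8 and 2B4, against 94.5 and 277 in the controls, and the dehydrogenase gene DHRS9 had 137 and 195 against 109 and 100.4, while ALDH1A1, which makes retinoic acid, had 153 and 51.6 against 308 and 71.0. The cell cycle inhibitor gene CDKN1A had 202 and 485 units after ATP, against 150 and 254 in the controls. The related CDKN1B was lower, at 289 and 207 units after ATP against 349 and 289. Of the 10 tested growth arrest genes, which include both, 2 (20%) were higher in both subclones and 4 (40%) lower, beside 19.6% and 29.7% of all entries. The gel-forming mucin gene MUC5AC had 912 and 546 units against 435 and 419, with fitted differences of 0.71 ± 0.21 for MUC5AC and 0.64 ± 0.19 for CDKN1A (SE). Without the 1E8 control the value of MUC5AC was 0.32, and without the 2B4 12 h array that of CDKN1A was 0.34.

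Matrix genes went both ways. The integrin gene ITGA5 had 121 and 181 units after ATP in 1E8 and 2B4, against 63.2 and 130 in the controls, and the protease inhibitor gene SERPINE2 had 7054 and 6562 against 6015 and 4474. The collagen gene COL1A2 had 384 and 111 units after ATP, against 570 and 284, and the matricellular gene CCN2 had 148 and 179 against 296 and 228. MYC had 2511 and 2056 units after ATP, against 3195 and 2878 in the controls. Of the histone genes, H2AC19 had 275 and 487 units against 161 and 375, and H2AC6 had 78.6 and 159 against 137 and 201, so members of this list lay on both sides of control. None of these genes passed the adjusted threshold in limma.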
